A study of Drosophila melanogaster with 18 samples.

Results

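Enhancers and other regulatory DNA often lie outside promoters, and the intervals described here are the stretches away from gene starts where 3 transcriptional regulators were all recorded on chromatin in the eye-antennal disc of Drosophila melanogaster, the larval tissue that forms the eye, the antenna and much of the head. They were recorded by Targeted DamID, in which a bacterial DNA methyltransferase (Dam) marks nearby GATC sequences, steered by whatever protein it is joined to, and reads are counted at the ends of the marked sites. The 3 regulators were Scalloped (Sd), a TEAD-family factor through which Hippo signalling reaches DNA, Yorkie (Yki), its coactivator, and the fly Jun protein Jra (Jun-related antigen), which forms part of AP-1. The members are the 835 Dam-Sd peak intervals that overlapped a Yki-Dam peak and a Dam-Jra peak by at least 1 bp and had no listed gene start inside them or within 1 kb. They make up 39.6% of the 2107 Dam-Sd intervals that all 3 peak lists shared and 16.5% of all 5057 Dam-Sd intervals. The Yki-Dam list held 3878 intervals and the Dam-Jra list 4568. The members were selected on measured values, since each peak list rests on the signal of its fusion over Dam, so their folds over Dam below are a description with no test.

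Every group carried Eyeless-Gal4, a driver active in the eye-antennal disc, with the temperature-sensitive repressor Gal80ts, and differed only in the transgene under UAS control. Dam alone was present in 3 sets of libraries (Set 1, Set 2 and Set 3), beside Dam-Sd (Set 1), Yki-Dam (Set 2) and Dam-Jra (named Set 1 in its titles, while Set 3 holds Dam and no fusion). Each of the 6 groups had 3 libraries. Eggs were laid at 25 °C, larvae were held at 18 °C for 4 days, and the transgenes were switched on by 29 °C for the last 24 hours before dissection. The wild-type genes remained present in all groups, so each fusion was an added, driven copy. Nothing in the labels tells whether the replicates came from different crosses or animals, so p-values may measure technical spread. Larval age beyond this schedule and the number of discs per library are not stated in the labels.

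The Hippo pathway restrains growth of imaginal discs by a kinase cascade, ending in Hippo and Warts, that keeps Yorkie out of the nucleus. Nuclear Yorkie has no DNA-binding domain of its own and acts through Scalloped, which in its absence can repress the same genes together with Tgi. Jra and Kayak form AP-1, which carries the JNK response to stress, wounding and loss of epithelial polarity, with the JNK phosphatase gene puc as its best known feedback target.

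The members were short and stood apart from starts. Their median length was 1063 bp (72 to 8039 bp), they held a median of 6 GATC ends (2 to 42), and together they covered 1179 kb. The nearest listed gene start lay 1001 to 4996 bp away, with a median of 2455 bp, and 546 members had none within 2 kb. The list names starts up to 5 kb away, so intervals farther out could not enter. The last members inside the limit were an interval in kibra (3R:14720134-14723260, 1001 bp away) and one beside the glycine tRNA gene tRNA:Gly-GCC-1-7 (2L:14527801-14529614, 1002 bp away). The shared intervals just outside it lay in bmm (3L:14784223-14785417, 995 bp away) and caps (3L:13229691-13230321, at the limit itself). The median log2 folds over Dam of the 1272 shared intervals nearer to starts (2.40 for Dam-Sd, 1.81 for Yki-Dam, 2.10 for Dam-Jra) were close to those of the members, given below, and this comparison rests on values the rule used.

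Most members were inside genes. Of the 835, 541 (64.8%) were wholly inside the span of a protein-coding gene of the RefSeq table of the same genome release (dm6), 283 (33.9%) lay between genes and 11 crossed a gene boundary. Among the shared intervals near starts, 17.5% lay between genes, a difference that the distance rule itself shapes. No RefSeq gene boundary of any kind lay within 1 kb of 735 members. Chromosome arms 3R, 3L, 2L, 2R and X held 201, 195, 168, 136 and 130 members, and chromosome 4 held 5, of which 2 were in the eye-determination gene ey and 2 in its paralogue toy.

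Members were often close to one another. Of the 835, 299 lay within 5 kb of another member, in 132 runs of 2 or more and 24 of 3 or more. The longest run held 5 members in 3R:25627966-25633967, beside Ssadh and jigr1. Runs of 4 lay, among other places, in E2f1, the cell cycle transcription factor gene, in ovo, a gene of epidermal differentiation, in mab-21 and at aos, which encodes the secreted EGF receptor inhibitor Argos. The other runs of 4 lay at Ca-beta, beside Gr93a and Gr93b, and beside genes of long non-coding RNAs. In all, 37 genes held 3 or more members inside their span, among them hh and dally, which encode the Hedgehog ligand and a glypican that shapes ligand spread. The gene with the nearest start was listed for each member, 658 genes in all, and 251 of these (38.1%) also had a shared interval near a start.

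The overlap between the 3 lists was rarely exact. Only 102 members had the same interval in all 3 lists, 396 lay wholly inside both other lists, and 638 were covered over at least 50% of their length by each. For 63 members the 3 lists shared no GATC end, and 55 of these touched the Yki-Dam interval (24) or the Dam-Jra interval (41), or both, only at a shared GATC site of 4 bases. Those 63 had lower median folds over Dam than the members as a whole in all 3 fusions. The medians were 2.17, 1.56 and 1.39 on the log2 scale in Dam-Sd, Yki-Dam and Dam-Jra, against 2.46, 1.90 and 2.15.

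Reads in the members took a larger share of the library in every fusion library than in any Dam library. The shares were 5.17%, 5.06% and 3.56% in Dam of Set 1, 5.65%, 4.87% and 5.46% in Set 2, and 6.02%, 6.03% and 6.48% in Set 3. They were 12.3%, 13.1% and 10.1% in Dam-Sd, 11.5%, 11.3% and 11.7% in the Yki-Dam libraries, and 10.3%, 10.5% and 10.4% in those of Dam-Jra. The Dam-Sd libraries spread the most and overlapped with those of both other fusions, while all Yki-Dam libraries were above all Dam-Jra libraries. The mean shares were 11.9% ± 1.54, 11.5% ± 0.170 and 10.4% ± 0.118 (SD, n = 3). For every fusion they were counted within the bounds of the Dam-Sd peaks. The rule chose these intervals by peaks of the same fusions, so the shares describe values that the rule used. Two-sided exact permutation tests cannot reach 0.05 with so few libraries and so do not decide whether the shares differ (p = 0.7 for Dam-Sd against Yki-Dam, 0.4 for Dam-Sd against Dam-Jra and 0.1 for Yki-Dam against Dam-Jra, where 0.1 is the smallest p that 3 against 3 libraries allow; adjusted over these 3 tests 0.7, 0.6 and 0.3).

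**Figure D1:**
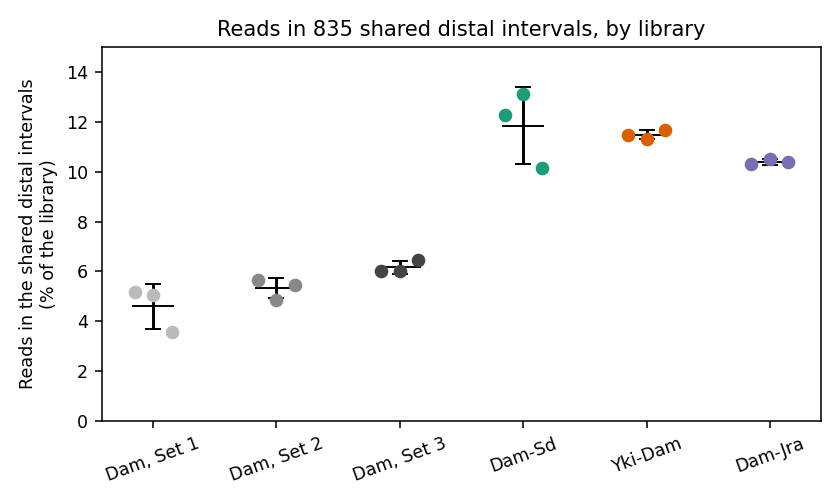
Share of each library's reads that fell in the 835 shared distal intervals (vertical axis, percent), for 3 libraries in each of 6 groups (points), with the group mean and SD (n = 3). The 9 Dam libraries lie between 3.56% and 6.48%, and the 9 fusion libraries between 10.1% and 13.1%.

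Signal density per kb in the members was close to that in shared intervals near starts. The ratio of the densities was 0.986 ± 0.031 for Dam-Sd, 1.02 ± 0.024 for Yki-Dam and 0.994 ± 0.0062 for Dam-Jra (mean ± SD, n = 3). Both sets of intervals were chosen by peaks of these same fusions, so the ratios are a description. Between fusions, two-sided exact permutation tests, whose smallest possible p is 0.1 here, gave no decision (p = 0.2 for Dam-Sd against Yki-Dam, 0.8 for Dam-Sd against Dam-Jra and 0.2 for Yki-Dam against Dam-Jra, adjusted 0.3, 0.8 and 0.3). In the Dam libraries the ratio was 0.962 ± 0.019, 0.952 ± 0.0083 and 0.915 ± 0.011 in Sets 1 to 3.

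Around the centres of the members the signal rose in all 6 groups, Dam alone included. Within 250 bp of the centre, Dam gave 3.89, 4.79 and 7.62 CPM per GATC end in Sets 1 to 3, and beyond 3 kb it gave 1.80, 2.20 and 3.46, so that the centre stood 2.16-fold to 2.20-fold above the flank. CPM here are counts scaled to library size after normalization by trimmed mean of M values (TMM). Dam-Sd gave 25.5 at the centre and 8.47 in the flank (3.01-fold), Yki-Dam 17.9 and 6.25 (2.87-fold), and Dam-Jra 24.6 and 8.69 (2.84-fold). Dam alone methylates open chromatin, so the members lay at places that Dam without a partner also reached, and the fusions were higher there and in the flanks.

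**Figure D2:**
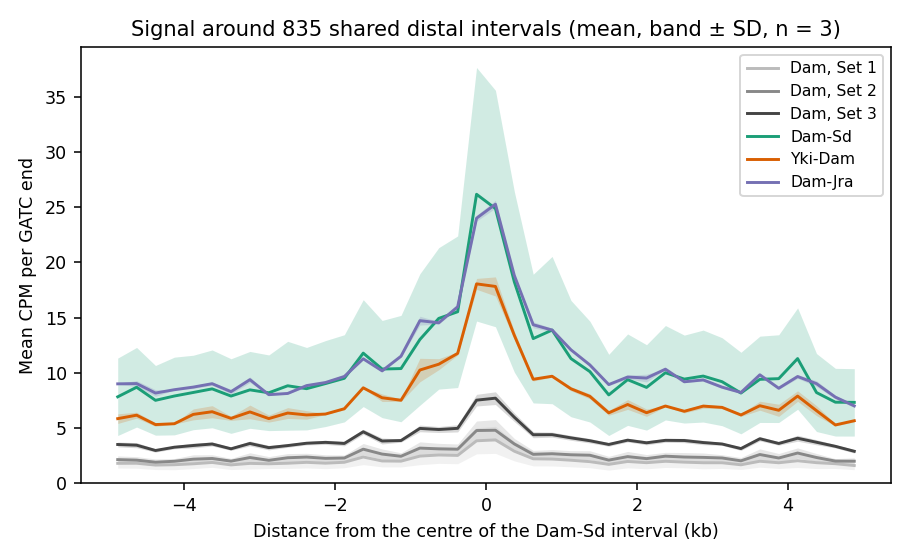
Mean TMM-scaled CPM per GATC end in bins of 250 bp, against the distance in kb from the centre of the 835 intervals, for the 6 groups (line, mean of 3 libraries; band, SD). All groups peak at the centre, where Dam-Sd and Dam-Jra reach about the same height (25.5 and 24.6 within 250 bp), and the band of Dam-Sd is the widest.

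As the rule makes likely, nearly all members were higher in the fusions than in Dam. The median log2 fold over Dam was 2.46 for Dam-Sd (quartiles 2.03 and 2.96), 1.90 for Yki-Dam (1.55 and 2.33) and 2.15 for Dam-Jra (1.73 and 2.62), against −0.08, −0.45 and −0.55 over all 108867 intervals and 1 kb tiles tested. The interval beside the cell death gene hid (3L:18189798-18190213) was the only one with a fold below 0 in any fusion (−0.20 in Yki-Dam). All 9 fusion libraries were above all 9 Dam libraries in 492 members (58.9%). The rule itself favours that count, and no such share over other intervals or tiles is given here to set beside it. These sizes depend on the scaling: with library size alone the medians were 1.06, 1.08 and 0.91, and TMM factors ran from 0.459 to 1.87.

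The Dam-Sd libraries did not agree on the size of the fold. Their medians over the members were 3.03, 2.59 and 1.62 in replicates 1, 2 and 3, while the Yki-Dam libraries gave 1.94, 1.92 and 1.96 and the Dam-Jra libraries 2.14, 2.25 and 2.18. Dam-Sd replicate 3 had the lowest CPM of the 3 Dam-Sd libraries in 795 members and not in the other 40. Both results rest on TMM factors that differed, at 0.459, 0.622 and 1.03 in Dam-Sd replicates 1 to 3. Before that scaling, the shares of reads in the members were 12.3%, 13.1% and 10.1%, which lie closer together. How much of the disagreement came from the scaling was not tested. Across the 835 members, the folds in Dam-Sd and Yki-Dam, which rest on separate Dam sets, correlated with Pearson's r = 0.53 and Spearman's rho = 0.50, given as a description across intervals of the same libraries. Dam-Jra was measured against all 3 Dam sets and so shares its controls with the other fusions, and no correlation is given for it. Dam-Sd had the highest of the 3 folds in 514 members, Dam-Jra in 254 and Yki-Dam in 67. That order rests on the scaling and the controls: with library size alone the counts were 353, 216 and 266, and with Dam-Jra set against Set 1 alone 391, 381 and 63. In the latter case the median fold of Dam-Jra, 2.50, was above that of Dam-Sd. The intervals were also bounded by the Dam-Sd peaks alone. Over the stretch common to all 3 lists, in 772 members, the median log2 excess of Dam-Sd over Dam-Jra was 0.18. It was 0.38 over the whole intervals of all members. Over Yki-Dam the excess was 0.51 and 0.60. How far these bounds shape the order was not tested.

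The folds of each pair of fusions were then compared, although the rule had used those same folds by requiring a peak of every fusion, which limits how far apart they could lie. The counts below therefore describe the members and are no independent test of equal binding (difference between folds, edgeR quasi-likelihood test, Benjamini-Hochberg adjustment over all 108867 intervals and tiles, called at an adjusted p below 0.05). For Scalloped and Yorkie, none of the 835 members was called in either direction, where 0.0946% of all intervals and tiles were called higher and 0.112% lower in Dam-Sd. The smallest adjusted p was 0.0766, at an interval in CG30089. At an unadjusted p below 0.05, 138 members (16.5%) were higher in Dam-Sd and 11 (1.32%) lower, against 6.29% and 5.5% over all intervals and tiles. DESeq2 called 21 (2.51%) and 2 (0.24%), against 1.78% and 1.34%. With the replicate number as a block, 177 (21.2%) were higher in Dam-Sd and 6 (0.719%) lower, against 3.49% and 2.21%. The median difference was 0.60 on the log2 scale, with 696 of 835 members above 0, against 0.22 over all intervals and tiles. With library size as the only scaling that median was 0.03. Single libraries moved it both ways. It was 0.13 without replicate 3 of Dam in Set 1 and 0.28 without Dam-Sd replicate 1. Without Dam-Sd replicate 3 it was 0.90, and 55 members were called higher and 1 lower (6.59% and 0.12%, against 1.17% and 1.39% over all). A miss of the threshold does not show that the folds were equal.

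Between Scalloped and Jra, more members were called. The fold was higher in Dam-Sd in 91 members (10.9%) and lower in 41 (4.91%), while over all intervals and tiles 13% were higher and 10.3% lower. How these shares stood to the background depended on the method for the higher calls. With the replicate block, 253 (30.3%) were higher and 110 (13.2%) lower, against 16% and 16.5% over all intervals and tiles. DESeq2 called 193 (23.1%) and 41 (4.91%), against 20.5% and 10.6%, and scaled by library size alone 18.1% of members and 10.8% of all were higher. The balance depends on the Dam libraries that Dam-Jra is set against. Against Set 1 alone 90 were lower (10.8%, against 14.5% over all), and against Set 3 alone 11 (1.32%, against 4.18%). It depends on single Dam-Sd libraries too. Without replicate 1, 56 were higher and 88 lower (6.71% and 10.5%, against 18.5% and 12.4% over all). Without replicate 3 the counts were 214 and 24 (25.6% and 2.87%, against 9.18% and 9.91%).

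Between Yorkie and Jra, 5 members had the higher fold in Yki-Dam and 48 in Dam-Jra, where 3.42% of all intervals and tiles were higher in Yki-Dam and 5.65% lower. For the lower calls the members' share, 5.75%, was close to that background. With the replicate block it was not, with 54 members (6.47%) higher and 214 (25.6%) lower against 8% and 13.1% over all. Against Set 3 alone only 1 and 3 members were called (0.12% and 0.359%, against 0.317% and 1.08% over all). Scaled by library size alone, 69 and 35 were called (8.26% and 4.19%, against 4.7% and 2.74% over all). The direction of this balance thus changed with the scaling, in the members and over all intervals and tiles alike.

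**Figure D3:**
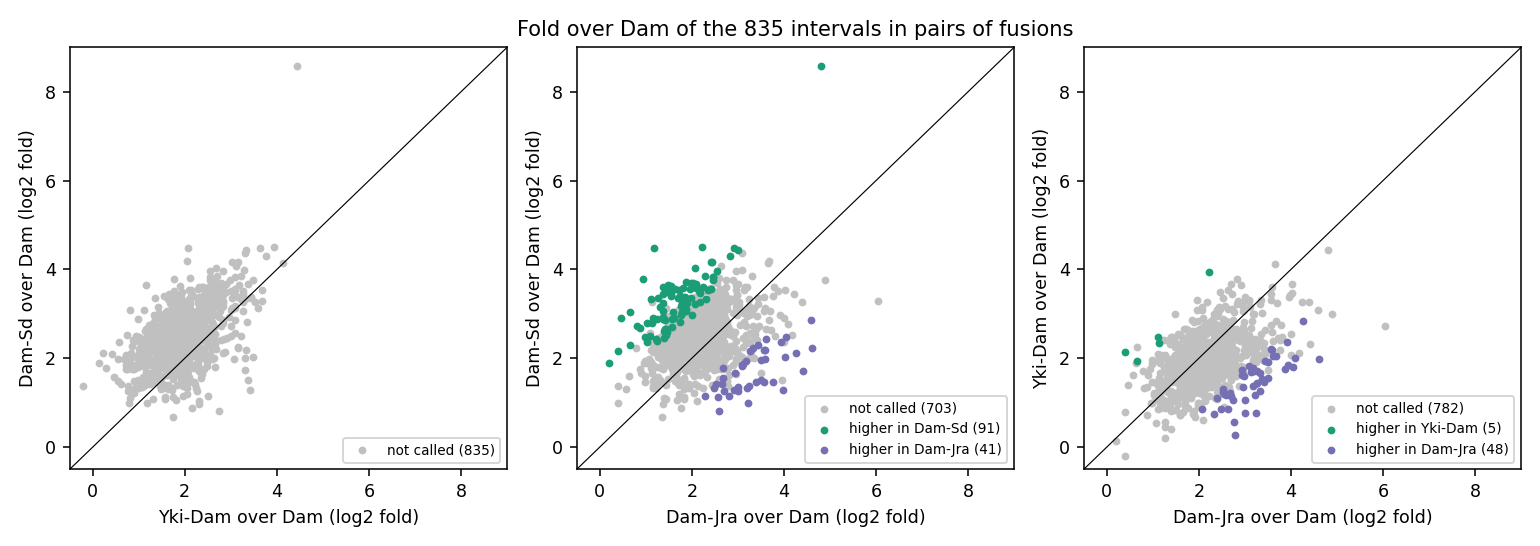
Log2 fold over Dam of each of the 835 intervals (points) in pairs of fusions, with the line of equality; colours mark intervals whose difference was called (adjusted p below 0.05). No interval is called between Dam-Sd and Yki-Dam, 91 and 41 are called between Dam-Sd and Dam-Jra, and 5 and 48 between Yki-Dam and Dam-Jra.

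Hippo pathway genes were among the genes nearest to the members. Of 22 Hippo pathway targets, 10 had the nearest start to a member (E2f1, Ser, dally, ex, fj, hth, kibra, vn, wg and wts, with 15 members in all), and of 26 pathway components, 7 did (Tgi, ex, fj, hth, kibra, tsh and wts). Over all 13922 protein-coding genes, 492 (3.53%) were listed with a member. The lists were written with earlier results of these data known, and no enrichment is claimed. The 15 members at Hippo targets had median log2 folds of 2.16, 1.81 and 1.98 in Dam-Sd, Yki-Dam and Dam-Jra, against 2.46, 1.90 and 2.15 over all members. Of these 15, 4 were called higher in Dam-Sd than in Dam-Jra and none lower, and 1 was higher in Yki-Dam than in Dam-Jra. Across all 835 members, the first comparison called 10.9% higher and 4.91% lower, against 13% and 10.3% of all intervals and tiles. The second called 0.599% and 5.75%, against 3.42% and 5.65%. Whether this list or any gene list below departs from these shares was not tested. With so few members per list, the calls are given as counts only. Counting also members inside a target gene whose nearest start belongs to another gene gave 22 members. Of these, Dam-Sd exceeded Dam-Jra in 5 and fell short of it in 1, and Yki-Dam did so in 1 and 1. The 22 had median log2 folds of 2.77, 1.85 and 2.03, so on this count the Dam-Sd median was above that of all members.

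The 4 nearest to target genes lay in ex, kibra, wts and E2f1. ex encodes the membrane-associated protein Expanded, which activates the Hippo kinases and is itself induced by Yorkie. Its first member (2L:433156-434699, 1930 bp from the start) had 10.3, 3.18 and 4.88 CPM in Dam of Set 1, 121, 76.9 and 35.9 in Dam-Sd, 101, 98.1 and 62.1 in Yki-Dam, against 31.5, 39.6 and 46.7 in Dam-Jra. Dam gave 10.4, 14.8 and 9.64 in Set 2 and 12.8, 8.35 and 11.9 in Set 3. All fusion libraries were above all Dam libraries here, and Dam-Sd replicate 3 lay among the Dam-Jra libraries. The folds over Dam were 3.67 ± 0.47 (log2 ± SE) for Dam-Sd, 2.91 ± 0.46 for Yki-Dam and 2.09 ± 0.32 for Dam-Jra, and Dam-Sd exceeded Dam-Jra by 1.58 ± 0.50 (adjusted p = 0.0297 in edgeR). That call was lost against Set 1 or Set 3 alone (adjusted p = 0.0800 and 0.0691).

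A second member in ex (2L:435467-437339), whose nearest start is that of lncRNA:CR43717, behaved likewise. It had 1604, 1195 and 575 CPM in Dam-Sd against 92.2, 95.7 and 69.9 in Dam of Set 1, and 408, 317 and 382 in Dam-Jra. Dam-Sd exceeded Dam-Jra by 1.84 ± 0.51 on the log2 scale (adjusted p = 0.0157 in edgeR), and the call was kept with either Dam set. The Yki-Dam libraries, at 162, 528 and 474 CPM, were spread more widely than those of Dam-Jra.

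kibra encodes a WW-domain protein that works with Expanded upstream of the kinases, and its member lay 1001 bp from the start. There, Dam of Set 1 gave 134, 87.4 and 79.8 CPM, Dam-Sd 1781, 1222 and 521, Yki-Dam 319, 1023 and 759, and Dam-Jra 482, 374 and 444. All Dam-Sd libraries were above all Dam-Jra libraries, while those of Yki-Dam and Dam-Jra overlapped. The excess of the Dam-Sd fold over the Dam-Jra fold was 1.59 ± 0.50 (adjusted p = 0.0290 in edgeR), and that of Yki-Dam, 1.14 ± 0.50, was not called (adjusted p = 0.149).

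At wts the 3 fusions were fully separate. It is the gene of the kinase Warts that phosphorylates Yorkie. Its member (3R:30801005-30805210, 4206 bp long with 26 GATC ends, 1409 bp from the start) had 401, 331 and 202 CPM in Dam-Sd, 177, 141 and 145 with Yki-Dam and 80.2, 78.2 and 88.5 in Dam-Jra. Dam gave 70.0, 48.6 and 72.4 in Set 1, 50.4, 29.5 and 41.7 in Set 2 and 58.3, 52.1 and 54.4 in Set 3. The 3 fusions did not overlap with each other, and the Dam-Jra libraries stood just above Dam. The fold was 2.29 ± 0.31 for Dam-Sd, 1.93 ± 0.31 for Yki-Dam and 0.66 ± 0.23 for Dam-Jra. The difference from Dam-Jra was 1.63 ± 0.35 for Dam-Sd (adjusted p = 0.00352 in edgeR, kept in all 30 alternatives) and 1.27 ± 0.35 for Yki-Dam (adjusted p = 0.0275, kept in 21 of 30).

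E2f1, which encodes a transcription factor for entry into S phase, held 5 members. The one called (3R:21628634-21630369) had 919.7, 577 and 257 CPM in Dam-Sd, 175, 329.5 and 378 in Yki-Dam, against 392, 366 and 394 in Dam-Jra. The Dam sets differed there, with 58.5, 53.6 and 30.6 in Set 1 and 184, 189 and 225 in Set 3. Dam-Sd replicate 3 was below all Dam-Jra libraries, and the difference in fold of 1.54 ± 0.45 (adjusted p = 0.0217 in edgeR) fell to 0.61 against Set 1 alone (adjusted p = 0.231). The other 4 members in E2f1 were not called, with log2 folds of 1.94 to 2.97 in Dam-Sd and 1.46 to 2.64 in Dam-Jra.

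The call in the other direction was in dlp, which encodes a glypican, at 3L:14656617-14657311 (695 bp, 2 GATC ends), where the nearest start is that of lncRNA:CR45888. Dam-Jra gave 82.1, 95.1 and 90.9 CPM, Dam-Sd 30.4, 15.9 and 4.36, and Yki-Dam 24.5, 15.1 and 19.6, with Dam at 2.32 to 3.56 in Set 1 and 8.75 to 10.7 in Set 3. The Dam-Jra libraries were above all others. The difference from Dam-Jra was −1.55 ± 0.50 for Dam-Sd and −2.24 ± 0.50 for Yki-Dam (adjusted p = 0.0327 and 0.00990 in edgeR), and both were lost against Set 3 alone (adjusted p = 0.467 and 0.290).

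Members at the remaining genes of both Hippo lists were not called. Tgi, the corepressor partner of Scalloped, held 3 members, and the one at 3L:13490281-13491179 had log2 folds of 3.02 ± 0.46, 1.84 ± 0.44 and 1.65 ± 0.32 in Dam-Sd, Yki-Dam and Dam-Jra, with a difference of 1.36 ± 0.50 from Dam-Jra (adjusted p = 0.054 in edgeR). The member of fj (2R:18236122-18237827), which encodes a Golgi kinase of the Fat branch, had 2.88, 1.78 and 1.89. The member in hth (3R:10610252-10610980), whose homeodomain protein can partner Yorkie in the eye disc, had 1.54, 1.28 and 2.60.

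Members at genes of the JNK pathway were called in both directions. None of the 21 JNK pathway components had the nearest start to a member, and 5 of 31 JNK pathway and AP-1 targets did (Socs36E, cher, dpp, hid and rpr), but 13 members lay inside genes of the target list, 3 of them in puc. The 7 members nearest to these 5 genes had median log2 folds of 2.46, 1.90 and 2.72 in Dam-Sd, Yki-Dam and Dam-Jra. Of the 16 members nearest to or inside target genes, Dam-Sd exceeded Dam-Jra in 3 and fell short of it in 3, and Yki-Dam fell short of it in 4 and exceeded it in none. The puc members are given because the gene is the classical AP-1 feedback target, a choice made after their values were seen. They lie at 3R:8116111-8116508, 3R:8117163-8117771 and 3R:8121198-8121421, inside puc, though the nearest listed starts belong to lncRNA:CR44331 and CG7878.

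At the middle puc member Dam-Jra stood far above the other fusions. It had 526, 480.2 and 509 CPM in Dam-Jra, 206, 131 and 80.4 in Dam-Sd and 82.0, 117 and 85.7 in Yki-Dam, with Dam at 55.9, 43.0 and 52.5 in Set 1, 30.4, 31.0 and 41.1 in Set 2 and 62.5, 64.4 and 61.6 in Set 3. The Dam-Jra libraries were above all others, and those of Dam-Sd and Yki-Dam overlapped. The log2 fold over Dam was 3.40 ± 0.23 in Dam-Jra, 1.46 ± 0.31 in Dam-Sd and 1.47 ± 0.31 in Yki-Dam. The difference from Dam-Jra was −1.94 ± 0.36 for Dam-Sd (adjusted p = 0.00132 in edgeR, kept in all 30 alternatives) and −1.93 ± 0.36 for Yki-Dam (adjusted p = 0.0028, kept in 29 of 30).

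The neighbouring puc members gave smaller differences. At the first, with 872, 781 and 866 CPM in Dam-Jra, 334, 313 and 181 in Dam-Sd and 330.0, 196 and 242 in Yki-Dam, the differences from Dam-Jra were −1.09 ± 0.36 for Dam-Sd and −1.67 ± 0.37 for Yki-Dam (adjusted p = 0.0373 and 0.00817 in edgeR). At the third, 138, 160.2 and 167 CPM in Dam-Jra stood above 129, 81.1 and 43.9 in Dam-Sd and 79.8, 60.4 and 55.2 in Yki-Dam. There the difference of Yki-Dam was −1.29 ± 0.38 (adjusted p = 0.0383), while that of Dam-Sd, −0.36 ± 0.37, was not called (adjusted p = 0.503). Against Set 3 alone none of the 3 Yki-Dam calls was kept (adjusted p = 0.256, 0.0923 and 0.456). The Dam-Sd call at the first member was lost there too (adjusted p = 0.482 in edgeR) and was kept in 18 of 30 alternatives.

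Ptp61F, the gene of a tyrosine phosphatase, held 2 of the 3 members with more Dam-Sd. At 3L:1385291-1386242, where ru overlaps, Dam-Sd gave 155, 142 and 70.6 CPM, Dam-Jra 68.5, 86.1 and 67.9 and Dam of Set 1 from 4.87 to 7.24. Dam-Sd replicate 3 lay among the Dam-Jra libraries. The difference of 1.43 ± 0.51 was just past the threshold (adjusted p = 0.0498 in edgeR; 0.205 against Set 1 alone). The other, at 3L:1393941-1394093, was called higher in Dam-Sd too (adjusted p = 0.0211) but rests on Dam libraries of 1 or 2 reads, given below.

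Among the other AP-1 targets, the member in Zasp52 (2R:15797822-15798734), which encodes a Z-disc protein and overlaps tun, had 6.85, 8.28 and 7.65 CPM in Dam-Jra against 2.54, 1.11 and 0.915 in Dam-Sd. The difference of Dam-Sd from Dam-Jra was −2.31 ± 0.60 (adjusted p = 0.0115 in edgeR; 0.205 against Set 3 alone). One member beside the cell death gene rpr (3L:18400736-18402378) differed between Yki-Dam and Dam-Jra by −1.43, and the call was lost against Set 3 alone (adjusted p = 0.704). The gene of the Dpp ligand held a member (2L:2446990-2448126) with the opposite order, higher in Dam-Sd than in Dam-Jra by 1.71, though not against Set 1 alone (adjusted p = 0.165), and a second one (2L:2448247-2448941) that was not called, with log2 folds of 2.12, 1.91 and 2.72.

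**Figure D4:**
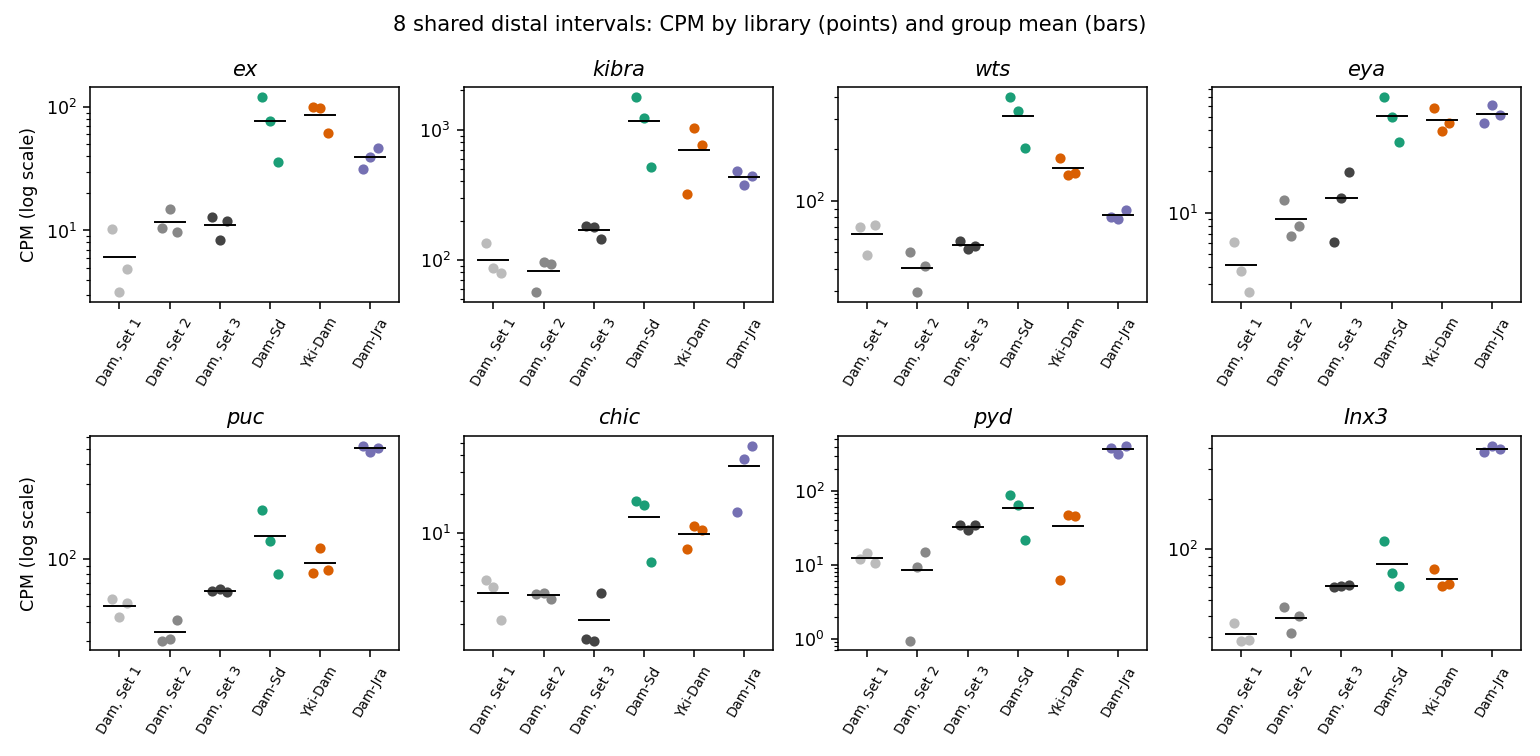
TMM-scaled CPM (log axis) of 8 shared distal intervals in each of 18 libraries (points) with group means (bars), for the intervals in ex, kibra, wts, eya, puc (the middle of its 3), chic, pyd and Inx3 described in the text. At wts the 3 fusions are separate with Dam-Sd highest (202 to 401 CPM) and Dam-Jra lowest (78.2 to 88.5 CPM), and at puc and Inx3 the Dam-Jra libraries are above all others.

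Genes that specify the eye and antenna were often nearest to a member. Of 36 such genes, 17 were, with 25 members (Optix, ara, ato, bab1, ct, dac, ey, eya, hh, hth, lz, mirr, oc, pnr, toe, toy and tsh). Their median log2 folds, 2.28, 1.72 and 2.14 in Dam-Sd, Yki-Dam and Dam-Jra, were close to those of all members, and 2 were higher in Dam-Sd than in Dam-Jra and 1 lower. The 2 were a member in ey (4:711393-712370) and one beside the homeobox gene mirr (3L:12688453-12691169). At ey, which sits at the top of the retinal network, Dam-Sd gave 382, 479 and 199 CPM and Dam-Jra 154, 166 and 145, with Dam of Set 1 at 43.5, 40.9 and 19.0. The excess was 1.66 ± 0.47 (adjusted p = 0.0184 in edgeR). At mirr, which marks the dorsal eye, the Yki-Dam and Dam-Jra libraries (57.0 to 106 and 62.6 to 80.6 CPM) overlapped with those of Dam, with log2 folds of 0.14 and 0.19, although the interval touched a peak in each list.

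eya, the retinal phosphatase and transcription cofactor gene, held 2 members that differed from each other. The first (2L:6538197-6539017) had 69.6, 49.95 and 32.8 CPM in Dam-Sd, 58.0, 39.5 and 44.7 in Yki-Dam, against 45.3, 60.6 and 51.3 in Dam-Jra, and no difference between fusions was called. The second (2L:6542428-6543982) had 69.5, 56.3 and 35.2 in Dam-Sd, 93.7, 58.2 and 67.3 in Yki-Dam, against 182, 186 and 175 in Dam-Jra. There all Dam-Jra libraries were above all others, with differences of −1.26 ± 0.36 for Dam-Sd and −1.20 ± 0.36 for Yki-Dam (adjusted p = 0.0190 and 0.0426 in edgeR). Neither was kept against Set 3 alone (adjusted p = 0.372 and 0.590).

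Members were also near genes of the signals that pattern the disc. Of 19 Wnt, Dpp and Hedgehog genes, 11 had the nearest start to a member (18 members), and of 26 Notch, EGFR and JAK-STAT genes, 10 did (16 members). The median log2 folds were 2.55, 2.11 and 2.26 for the former and 2.59, 2.20 and 2.18 for the latter. In each list 2 members were higher in Dam-Sd than in Dam-Jra and none was lower, while the member of Stat92E, the JAK-STAT transcription factor gene, was lower in Yki-Dam than in Dam-Jra by −1.22 ± 0.36 (adjusted p = 0.0419 in edgeR; 0.561 against Set 3 alone). One was in N, the gene of the Notch receptor (X:3136026-3136601), with 212, 173 and 145 CPM in Dam-Sd, 187, 134 and 156 in Yki-Dam, against 84.7, 84.9 and 87.4 in Dam-Jra. The Dam-Jra libraries were below those of both other fusions there, and the difference from Dam-Sd was 1.35 ± 0.36 (adjusted p = 0.0127 in edgeR, kept against either Dam set).

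At aop, which encodes the Ets-family repressor Yan, the member at 2L:2163700-2165444 was among the strongest in reads. It had 2657, 2156 and 1161 CPM in Dam-Sd, against 1176, 1124 and 1168 in Dam-Jra, so that replicate 3 of Dam-Sd fell among the Dam-Jra libraries. The difference was 1.17 ± 0.40 (adjusted p = 0.0401 in edgeR; 0.0821 against Set 1 alone). The member of the Wingless receptor gene fz (3L:14275428-14276633) had log2 folds of 2.16 ± 0.47 for Dam-Sd, 2.14 ± 0.47 for Yki-Dam and 0.40 ± 0.36 for Dam-Jra, and both differences from Dam-Jra were called (1.75 ± 0.53 and 1.74 ± 0.53, adjusted p = 0.0247 and 0.0472). The Yki-Dam call was kept in 14 of 29 alternatives. A member in hh (3R:23137246-23138470) had 388, 319.6 and 82.7 CPM in Dam-Sd, 135, 177 and 151 in Yki-Dam, against 436, 459.9 and 431 in Dam-Jra, and no difference was called.

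Actin, junction and cell shape genes were fewer. Of 22 actomyosin genes, 6 had the nearest start to a member (beta-Spec, cher, chic, ena, kst and zip), with 9 members, and of 25 polarity and junction genes, only Lac and pyd did. In the actomyosin list 3 members were lower in Yki-Dam than in Dam-Jra, and between Dam-Sd and Dam-Jra 1 was higher and 1 lower. The higher one, in kst (3L:3340125-3343189), had 467, 250.4 and 132 CPM in Dam-Sd, against 157, 129 and 132 in Dam-Jra, with Dam-Sd replicate 3 among the Dam-Jra libraries, and differed by 1.25 ± 0.40 (adjusted p = 0.0326 in edgeR). The member of chic, the profilin gene (2L:5974957-5976756), had 14.6, 37.4 and 47.6 CPM in Dam-Jra, 17.9, 16.6 and 6.02 in Dam-Sd and 7.54, 11.5 and 10.6 in Yki-Dam, with differences of −1.54 ± 0.52 and −1.94 ± 0.53 (adjusted p = 0.0405 and 0.0273 in edgeR). Dam-Jra replicate 1 lay among the Dam-Sd libraries, and neither call was kept against Set 3 alone (adjusted p = 0.0676 and 0.0800). The 2 other Yki-Dam calls were at another member of kst and at beta-Spec, which encode spectrin chains, and were likewise lost against Set 3 alone (adjusted p = 0.554 and 0.544).

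The polarity and junction list had 1 call in each direction between Dam-Sd and Dam-Jra. At Lac, which encodes a septate junction protein of the immunoglobulin family, a member of 155 bp (2R:12457048-12457202) had 191, 192 and 85.4 CPM in Dam-Sd, against 51.4, 43.9 and 54.8 in Dam-Jra. All Dam-Sd libraries were above all Dam-Jra libraries, and the difference was 1.42 ± 0.47 (adjusted p = 0.0350 in edgeR; 0.0620 against Set 3 alone).

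At pyd, the gene of the junction scaffold Polychaetoid (3R:8928514-8929221), Dam-Jra gave 384, 316 and 412 CPM, Dam-Sd 88.2, 63.8 and 22.03, and Yki-Dam 6.16, 46.7 and 46.4. The Dam-Jra libraries were above all others, Yki-Dam replicate 1 lay within the range of Dam, and Dam itself ran from 0.947 to 14.9 CPM in Set 2 and from 30.0 to 34.6 in Set 3. The differences from Dam-Jra, −2.38 ± 0.81 for Dam-Sd and −2.65 ± 0.81 for Yki-Dam (adjusted p = 0.0401 and 0.0474 in edgeR), were among the largest, and were lost against Set 3 alone (adjusted p = 0.449 and 0.527). The gap junction gene Inx3, which overlaps spg, gave an even excess of Jra. Its member (3R:28856001-28857147) had 381, 415 and 398 CPM in Dam-Jra, 111, 72.2 and 60.5 in Dam-Sd, and 76.2, 60.3 and 61.8 in Yki-Dam, and Dam-Jra was above all other libraries. The differences were −1.87 ± 0.32 for Dam-Sd and −2.48 ± 0.32 for Yki-Dam (adjusted p = 0.000694 and 0.000147), and the latter was kept in all 30 alternatives.

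Other lists held fewer members. Of 21 cell cycle and growth genes, 5 had the nearest start to a member (E2f1, InR, S6k, brat and foxo, 8 members, 1 of them higher in Dam-Sd than in Dam-Jra, to which the inside count adds a member in brat, higher by 1.76), and of 11 ecdysone timing genes, Eip75B and Kr-h1 did. Of 28 markers of other cells that a dissected disc can hold, 2 (7.14%) had the nearest start to a member, beside 3.53% of all protein-coding genes. They were 1 of 6 for glia (nrv2), 1 of 5 for muscle (how), and none of 5 neuron, 6 haemocyte, 4 fat body and 2 germline markers. DamID does not measure RNA, so these counts describe genes and not cell types. Among the eye-antennal determination genes, which define the labelled tissue, ey, toy, eya, Optix and dac had the nearest start to a member.

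**Figure D5:**
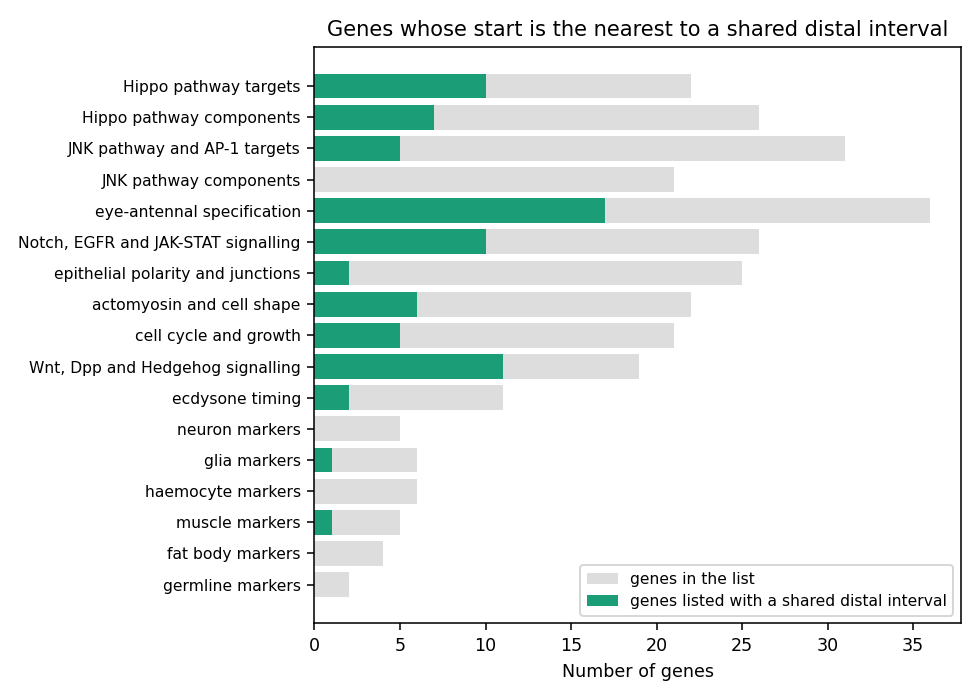
Number of genes in each of 17 lists (pale bars) and number whose start is the nearest to a shared distal interval (green bars). Eye-antennal specification (17 of 36), Wnt, Dpp and Hedgehog signalling (11 of 19) and Hippo pathway targets (10 of 22) have many, and JNK pathway components have none of 21.

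Among members whose libraries did not overlap, the largest called differences between Dam-Sd and Dam-Jra were at intervals of varied length. The member in Mkp3 (3L:19081499-19081656, 158 bp), which encodes a phosphatase that restrains ERK, had 288, 274 and 69.6 CPM in Dam-Sd, 102, 80.7 and 105 in Yki-Dam, against 49.6, 45.6 and 43.5 in Dam-Jra. All Dam-Sd libraries were above all Dam-Jra libraries, and the difference of 2.85 ± 0.46 (adjusted p = 0.000428 in edgeR) was kept in all 29 alternatives. In the other direction, an interval in CG30089 (2R:15739506-15740118) had 55.3, 64.7 and 54.8 CPM in Dam-Jra, 35.6, 16.8 and 23.8 in Yki-Dam, against 15.8, 10.7 and 6.23 in Dam-Sd, and the difference of Dam-Sd was −2.68 ± 0.40 (adjusted p = 0.000223, kept in all 30). An interval of 125 bp in the adhesion gene kirre (X:2985642-2985766) was higher in Dam-Sd by 3.31 ± 0.75 (adjusted p = 0.00515), at low signal, with 13.8, 11.1 and 6.48 CPM in Dam-Sd, against 3.45, 1.68 and 1.18 in Dam-Jra. One of 1059 bp in the corepressor gene Smr (X:12728481-12729539) differed by −2.71 ± 0.68 (adjusted p = 0.00921), with 15.7, 21.0 and 18.7 CPM in Dam-Jra and 8.15, 1.82 and 0.915 in Dam-Sd. The Smr call was kept in 29 of 30 alternatives and lost against Set 3 alone (adjusted p = 0.0713 in edgeR).

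The 5 members higher in Yki-Dam than in Dam-Jra lay in fz, wts, bib, osp and robo2, all inside genes, and wts and robo2 are named after their values were seen. bib, a neurogenic gene of Notch signalling, held an interval (2L:9992388-9993008) with 70.8, 40.4 and 51.6 CPM in Yki-Dam, 96.5, 80.4 and 32.1 in Dam-Sd, against 18.7, 22.4 and 18.4 in Dam-Jra, and a difference of 1.73 ± 0.46 (adjusted p = 0.0243 in edgeR; 0.160 against Set 1 alone). In osp and robo2 the differences were 1.37 ± 0.35 and 1.21 ± 0.35 (adjusted p = 0.0199 and 0.0343), kept in 22 and 16 of 30 alternatives. Among the 48 in the other direction was one in CG32816 near the proneural gene l(1)sc (X:405057-405836), with 27.0, 31.0 and 28.0 CPM in Dam-Jra and 15.5, 9.07 and 15.4 in Yki-Dam, and a difference of −2.51 ± 0.57 (adjusted p = 0.0101). The Dam sets differed there, with 13.4, 11.5 and 8.05 CPM in Set 2 and 1.59, 1.38 and 1.63 in Set 3. Yki-Dam overlapped its own Dam (log2 fold 0.28), and with library size alone the edgeR call was lost (adjusted p = 0.0509).

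Several of the highest folds over Dam rested on uneven libraries. In 18 of 835 members a library lay at least 8-fold from both others of its group, and 4 of the 8 members with the highest mean fold were among them, in Ptp61F, Sox14, Egfr and Kr-h1. The interval in Sox14 (2R:23982061-23982746, 2 GATC ends) had 91.1 and 87.5 CPM in Dam-Jra replicates 2 and 3 but 0.0493 in replicate 1, and 31.8, 31.0 and 1.13 in Dam-Sd. One of the 2 intervals in Egfr (2R:21523760-21525190) had 0.247, 11.9 and 10.6 CPM in Dam-Jra, while the other (2R:21543650-21545374) was even, with 557, 553 and 595 in Dam-Jra, 754, 596 and 520.0 in Yki-Dam, against 944, 807 and 202 in Dam-Sd. The interval in Kr-h1 (2L:6087962-6088881) had 0.542, 75.9 and 58.6 CPM in Dam-Jra. Outside those 8, the interval in bab1 (3L:1098407-1098757) had 3.70, 333 and 380.0 CPM in Dam-Jra, and those of pyd and hid given above were uneven too. The highest of all, 153 bp in Ptp61F (3L:1393941-1394093), had 22.7, 5.05 and 4.54 CPM in Dam-Sd and 0.0194 to 0.0299 CPM in Dam of Set 1, where each library held only 1 or 2 reads, so no fold is given. The other 4 of the 8 members with the highest mean fold were in dpn, TrpA1 and Doa and beside CG42807, with log2 folds of 2.91 to 4.49. The interval in dpn (2R:8230757-8230894, 138 bp), though not among the 18, was uneven and low in Dam. It had 0.0388, 1.90 and 0.225 CPM in Dam of Set 1 and 0.0256, 2.01 and 0.223 in Set 2. Dam-Jra gave 14.2, 2.44 and 12.3 there, and the SE of its 3 folds ran from 0.82 to 1.23.

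Most members were read deeply. Libraries held between 21416846 and 40967981 counted reads, and a member drew a median of 974 reads in a Dam library and 2206 in a fusion library. A Dam library had under 3 reads in 10 members. The authors' deposited peak lists gave the members median log2 fold changes of 1.86, 2.05 and 1.93 for Dam-Sd, Yki-Dam and Dam-Jra.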

How the data were processed

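Targeted DamID libraries (18, in 6 groups of 3) were analysed from the authors' deposited table of read counts, whole numbers at 767321 GATC ends, unnormalized. Per the submitters' processing notes, Subread, featureCounts, edgeR and bedtools were used with dm6. Deposited peak lists, 1 per fusion, gave each interval the authors' log2 fold and p-value, and the gene starts within 5 kb; their Dam libraries and any pooling are not given in the sources used here. All peak boundaries (100%) fell on GATC sites.

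Counts were summed over 5057 Dam-Sd intervals and over 1 kb tiles elsewhere. Features with low counts were left out (filterByExpr, minimum count 10), leaving 108867 and all 835 members. Libraries were scaled by TMM and fitted as 6 groups (12 residual degrees of freedom) with the quasi-likelihood test of edgeR 4.0.16 in R 4.3.3, adjusted over all features by Benjamini-Hochberg; SE is the absolute log2 value divided by the root of F. Dam-Sd was set against Dam of Set 1, Yki-Dam against Set 2 and Dam-Jra against the mean of the 3 sets. The fit was tested on simulated data. No 2 libraries agreed within sampling noise. Equal replicate numbers deviated together in Dam-Sd and Set 1 (r = 0.51, 0.28 and 0.21) and in Yki-Dam and Set 2 (0.56, 0.34 and 0.32), so blocked counts stand beside the results; Dam-Jra did not pair with Set 1 (−0.22, −0.02 and −0.09) or with Set 3. DESeq2 1.42.0 was an alternative.

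Genes were named by coordinates from the RefSeq table (5017 of 5185 IDs). The members and gene lists were chosen with earlier results of these data known. Named members are the 8 with the highest mean fold, up to 3 called in each direction per comparison with separated libraries, up to 4 per gene list, and those beside the 1 kb limit; others are named as chosen after their values were seen, as are the called members at list genes that this rule left out (aop, brat, dlp, dpp, ey, eya, mirr, N, Ptp61F, puc, rpr, Stat92E, Zasp52, beta-Spec, kst) and the members of Tgi, hth and E2f1 beyond the first. The SE values come from the fit and carry the spread between libraries of a group, whose biological independence is not stated. No sequences or motifs were analysed here.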

Additional observations from a re-analysis of the deposited data

How the results depend on the processing

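Counts of members are given as higher and lower, in the order Dam-Sd minus Yki-Dam, Dam-Sd minus Dam-Jra and Yki-Dam minus Dam-Jra (as reported: 0 and 0, 91 and 41, 5 and 48). Values that moved by over 1.5 times follow; all others of these counts stayed within that. Replicate block: 177 and 6, 253 and 110, 54 and 214. DESeq2's Wald test: 21 and 2, 193 higher, 15 higher (1.8% of members, against 8.1% over all intervals and tiles, for the last). Fusion against fusion directly: 57 and 3, 90 lower, 27 and 181. As shares of members these were 6.83% and 0.359%, 10.8%, and 3.23% and 21.7%. Over all intervals and tiles they were 3.57% and 2.14%, 14.5%, and 20.7% and 14.9%. Library size only: 1 and 7 (0.12% and 0.838%, against 0.0882% and 0.333% over all), 151 and 73 (18.1% and 8.74%, against 10.8% and 9.61%), 69 higher. Adjusted p below 0.01: 25 and 16 for Dam-Sd minus Dam-Jra (2.99% and 1.92%, against 3.41% and 4.9% over all). For Yki-Dam minus Dam-Jra that threshold gave 0 and 12 (0% and 1.44%, against 0.64% and 2.18%). Dam-Jra against Set 3: 11 lower, 1 and 3. Against Set 1: 90 lower, 2 higher (0.24%, against 2.85% over all, for the last). DESeq2 size factors: 150.0 higher for Dam-Sd minus Dam-Jra (18.0%, against 15.7% over all). Overlap of at least 50%: 59 higher for Dam-Sd minus Dam-Jra, 2 higher for Yki-Dam minus Dam-Jra. For Yki-Dam minus Dam-Jra alone, no start within 2 kb gave 3 higher (0.549%, against 3.42% over all) and 2 kb tiles 8 (0.958%, against 5.48%). The common stretch gave 3 higher (0.389%, against 3.41%). Only the comparison's libraries gave 16 and 91 (1.92% and 10.9%, against 7.39% and 8.74%). Leaving out each library in turn gave 0 to 55 and 0 to 1, 35 to 214 and 21 to 88, 0 to 11 and 20 to 56. Median log2 folds over Dam as reported were 2.46, 1.90 and 2.15 in Dam-Sd, Yki-Dam and Dam-Jra, and with library size only 1.06, 1.08 and 0.91. For Yki-Dam the median was 2.02 with the 50% overlap, 1.93 with DESeq2 size factors and 2.05 over the common stretch; for Dam-Jra it was 2.27 with the 50% overlap, 2.31 over the common stretch, 1.65 against Set 3 and 2.50 against Set 1. The causes were not tested. Of 45 calls at named members and list genes, none reversed, and 344 of 1343 alternative values missed the threshold. The Dam libraries taken as control, the replicate block, the scaling and single Dam-Sd libraries each moved the counts against Dam-Jra. The shares called over all intervals and tiles moved with these settings as well. The planned motif search and its central window were not run, since no genome was used here.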
